A study of Mus musculus with 6 samples.

Results

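The genes described here encode receptors for interleukins, interferons and ligands of the tumor necrosis factor (TNF) family. They were chosen by symbol. Every gene of the deposited table named as a numbered interleukin receptor, an alpha/beta, gamma or lambda interferon receptor chain, or a numbered TNF receptor superfamily member was taken. The 7 genes Il1r1, Il2rg, Il4ra, Il6ra, Il11ra1, Il13ra1 and Il31ra were left out. This gave 60 genes of 57180, of which 40 were interleukin or interferon receptor genes and 20 were TNF receptor genes. Il1rn and Il36rn match the naming but encode soluble antagonists of receptors.

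They were measured by RNA sequencing of dorsal root ganglia, the sensory ganglia beside the spinal cord, from thoracic level 8 to lumbar level 2 of wild-type (WT) mice. Both groups were anesthetized with Zoletil, had the kidney exposed through the flank and were sampled 24 h after surgery. In the 3 I/R (ischemia-reperfusion) mice the left renal pedicle was clamped for 28 min and released and the right kidney was removed, while the 3 sham mice had no clamp. Whether the right kidney was also taken in sham mice is not stated separately, and the side of the ganglia, strain, sex and age are not stated either. If it was taken only in I/R mice, its loss and the clamp cannot be told apart.

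Interleukin and interferon receptors mostly work as pairs of chains, one that binds the ligand and one shared by several ligands, and pass the signal on through Janus kinases and STAT factors. The IL-1 and IL-17 receptors instead recruit adaptors that lead to NF-kB. TNF receptors bind trimeric ligands, and signal either through a cytoplasmic death domain or by binding TRAF adaptors directly. Some are decoys without signaling. In sensory ganglia such receptors sit on neurons, satellite glia, macrophages and vessels, and cytokines acting on them can change how easily nociceptors fire.

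Values of single libraries are given in the order 1 to 3 within each group. Library totals lay between 19092650 and 22010227 expected counts. Levels are given as CPM, reads scaled to library size. A gene without a read could still stand at up to 3 counts, or 0.137 to 0.154 CPM. Neuronal and Schwann cell markers were abundant in all 6 libraries. The neuronal markers summed to 10045 to 11715 CPM in sham and 11114 to 12131 CPM in I/R. The Schwann cell markers summed to 6437 to 6715 CPM in sham and 5462 to 6149 CPM in I/R, without overlap, and none of them was called. Erythroid markers summed to 183 to 274 CPM in sham and 53.7 to 88.02 CPM in I/R, with 5 of 6 called lower. Skeletal muscle transcripts set sham 1 and sham 3 apart. Without Pvalb, which sensory neurons also express, the 7 muscle markers summed to 362, 14.4 and 186 CPM in sham 1 to 3 and to 5.68, 11.1 and 8.40 CPM in I/R 1 to 3. In bulk tissue, fewer cells of a type and less RNA per cell cannot be told apart.

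Of the 60 genes, 35 had enough reads to be tested, 3 had no read in any library (Il12rb2, Il23r and Il36rn) and the other 22 were too low. In I/R ganglia 2 receptor genes rose, or 5.71% of those tested. Il17ra, the signaling chain shared by the IL-17 receptor complexes, about doubled, and Tnfrsf8, which encodes CD30, a TNF receptor of activated lymphocytes, went from 1 read over the sham libraries to 85 over the I/R libraries. Over all 16346 tested genes, 1.15% were called in edgeR's quasi-likelihood test (adjusted p under 0.05), 0.722% as higher and 0.428% as lower. Tnfrsf8 was tested only because it was above the filter in I/R, so the share of 2 in 35 is not a result about the receptors as a set. None of the 35 was called lower by edgeR, DESeq2 or limma-voom, and 2 lay lower in edgeR's test at a p below 0.05 before adjustment. The median log2 fold change, I/R over sham, was 0.08 over the 35 genes and 0.00013 over all tested genes. Of the 35, 20 (57.1%) lay above 0, against 50.02% of all tested genes. The median of the receptor genes turned to -0.045 with the muscle level of each library as a covariate and to -0.015 against sham 2 alone, both alternatives chosen after seeing the data.

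**Figure D1:**
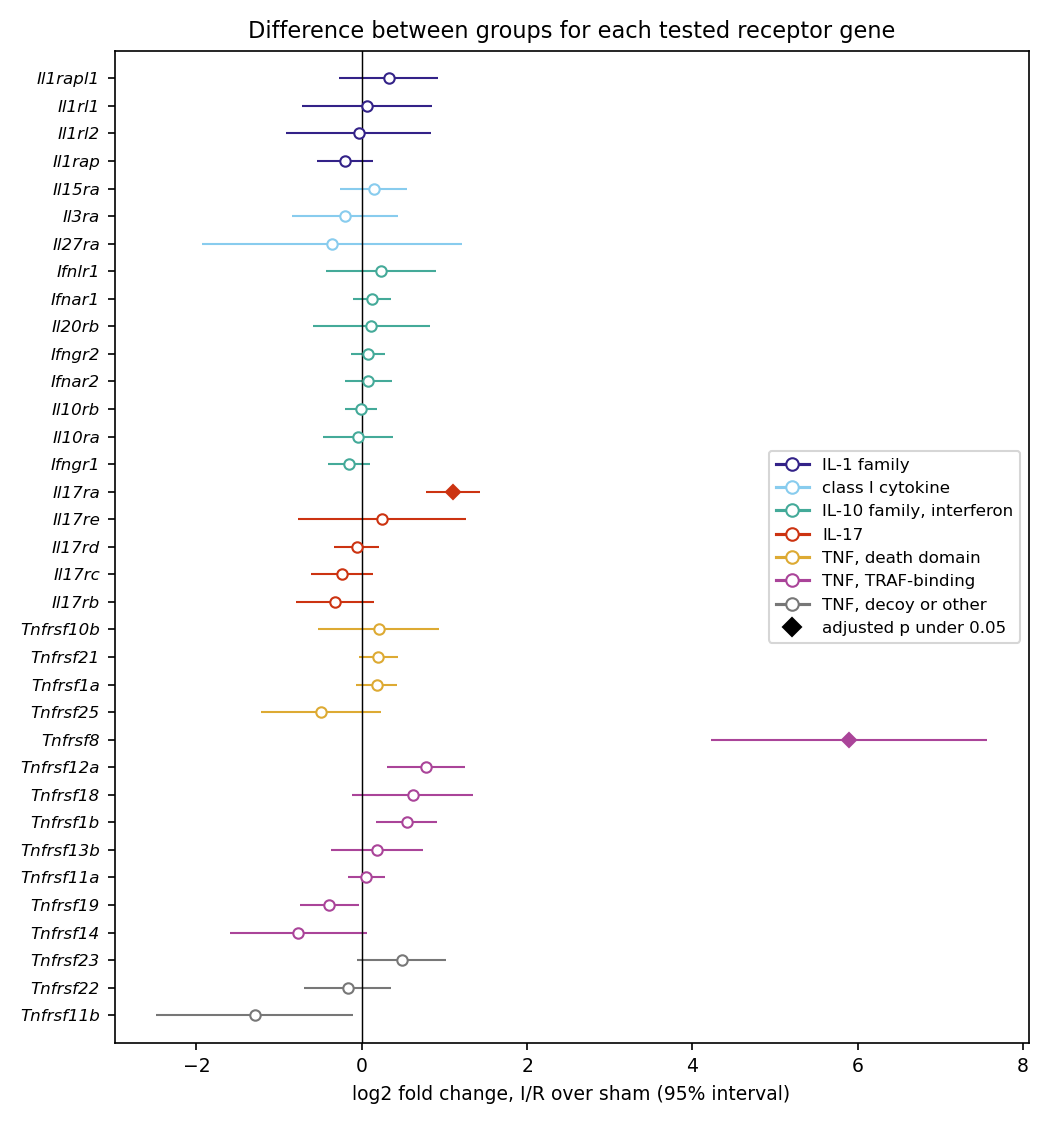
Log2 fold change of I/R over sham with its 95% interval for each of the 35 tested receptor genes, colored by role; filled diamonds mark an adjusted p under 0.05 and open circles the other genes. Il17ra and Tnfrsf8 are the 2 filled points, and the fitted value of Tnfrsf8 rests on 1 sham read and is no bound.

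Among the IL-17 receptor genes, Il17ra was the one that rose. Its level was 4.27, 4.70 and 4.17 CPM (sham) against 10.6, 9.10 and 8.53 CPM (I/R). The lowest I/R library lay well above the highest sham library. The sham mean was 4.38 ± 0.284 CPM and the I/R mean 9.40 ± 1.05 CPM (SD, n = 3 each). On the log2 scale Il17ra rose by 1.10 ± 0.15 SE (95% interval 0.77 to 1.43; edgeR adjusted p = 0.00533). Leaving out any single library kept the call, with adjusted p between 0.0152 and 0.0472. The call was lost with the planned block on replicate number (log2 fold change 1.10, edgeR adjusted p = 0.0589), though the labels state no pairing. It was also lost with the muscle level as a covariate (0.95, edgeR adjusted p = 0.483), which left 27 calls over all genes in place of 188. Against sham 2 alone the log2 fold change was 0.98, and the call was lost too. The last 2 alternatives were chosen after seeing the data. In sham 2, the sham library low in muscle transcripts, Il17ra stood at 4.70 CPM, the highest of the 3 sham values. The part of muscle tissue in the Il17ra result was not tested.

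The partner chains of Il17ra did not pass the test. Il17rc, which pairs with Il17ra to bind IL-17A and IL-17F, stood at 9.18, 9.45 and 7.51 CPM (sham) against 8.06, 8.23 and 5.93 CPM (I/R). These groups overlapped (log2 fold change -0.24 ± 0.17 SE, 95% interval -0.61 to 0.14; edgeR adjusted p = 0.679). Il17rb, which pairs with Il17ra for IL-25, stood at 2.50, 2.05 and 2.37 CPM (sham) against 1.58, 1.94 and 2.01 CPM (I/R). All its I/R values were below its sham values, but the difference did not pass the test (adjusted p = 0.659). Il17rd, an IL-17 receptor relative also known as an inhibitor of fibroblast growth factor signaling, stood at 12.1, 12.3 and 11.2 CPM (sham) against 10.3, 12.4 and 11.4 CPM (I/R), a log2 fold change of -0.06 ± 0.12 SE (edgeR adjusted p = 0.892). Il17re, the chain for IL-17C, was low, at 0.344 to 0.617 CPM in sham and 0.387 to 0.939 CPM in I/R.

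Per kilobase of gene length, the chains therefore stood in another proportion to each other in I/R. Il17rc exceeded Il17ra by 7.24, 6.77 and 6.07 times in sham 1 to 3 and by 2.56, 3.05 and 2.34 times in I/R 1 to 3. The groups did not overlap. The ratio contains Il17ra, the gene that was called, and was not tested apart from its genes, so it is no second result. Deposited counts were not whole numbers in 6 libraries for Il17rc and in 3 for Il17ra, so the assignment of some reads is uncertain. Il17ra was the fourth of the 5 IL-17 receptor genes by level per kilobase in each sham library. The ligands Il17a, Il17c and Il17f had no read in any library. Il17b, too low to test, had 1, 2 and 5 counts (sham) against 6, 7 and 8 counts (I/R). Il17d was measured at 0.982, 0.800 and 0.823 CPM (sham) against 1.28, 1.02 and 1.00 CPM (I/R). For both of these the I/R values were all above the sham values. Of the other ligands too low to test, Il1b, Il24 and Il36g also lay above without overlap. Ebi3 and Tnf lay below without overlap. Among the 9 tested ligand genes of these pathways, Il17d was the 1 without overlap (11.1%), against 17.1% of all tested genes. Il25 stood at 1.18, 0.700 and 1.29 CPM (sham) against 0.939, 0.823 and 0.274 CPM (I/R). Neither Il17d nor Il25 passed the test.

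**Figure D2:**
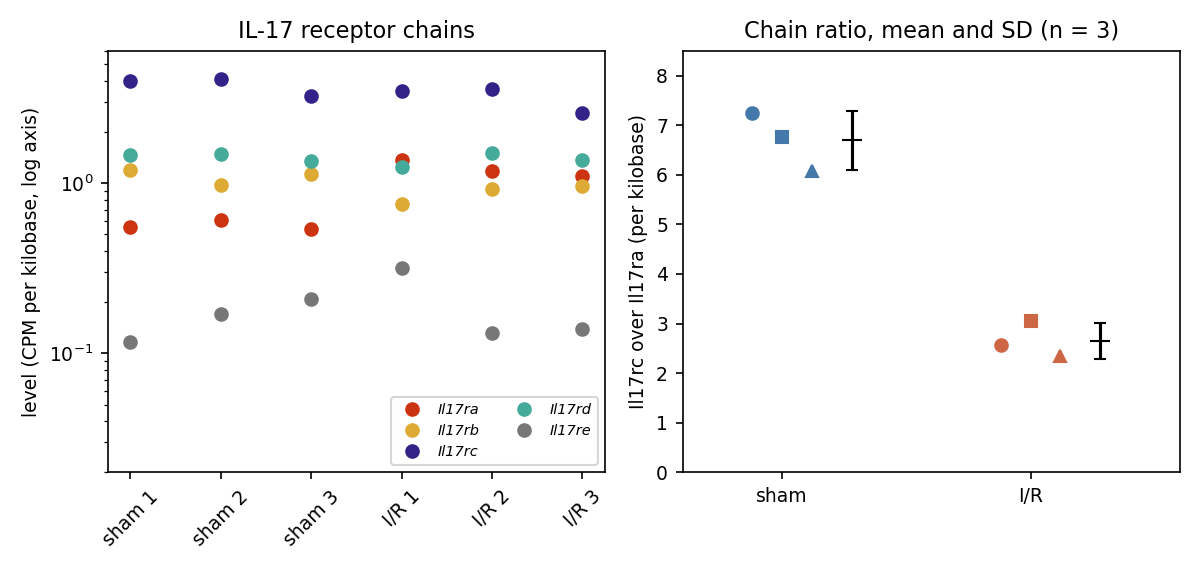
Left, level in CPM per kilobase (log axis) of the 5 IL-17 receptor genes in each of the 6 libraries; right, the ratio of Il17rc to Il17ra per kilobase by library, with mean and SD. Il17ra lies higher in the 3 I/R libraries, and the ratio runs from 6.07 to 7.24 in sham and from 2.34 to 3.05 in I/R.

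Tnfrsf8 was close to absent from sham ganglia. It had 0, 1 and 0 counts (sham) against 30, 16 and 39 counts (I/R), which are 0, 0.05 and 0 CPM against 1.48, 0.775 and 1.78 CPM. Every I/R library was above the limit that a count of 0 allows, and every sham library was below it. The ratio of the summed counts, scaled to library size, was 80.9 with an exact 95% counting interval of 14.1 to 3234, and the adjusted p in edgeR's test was 0.0042. Since reads were counted and not molecules, such intervals cover counting error only. Tnfrsf8 passed the filter on low counts only through its I/R libraries. The p-values given for it are therefore no separate support for the difference. Even in I/R the level was low, at 0.394 CPM per kilobase on average, under that of most of the tested receptors. With each library left out in turn it was still called (edgeR adjusted p 0.00908 to 0.0322). It entered these fits too only through I/R libraries, so they are no separate support either. The call was lost with the planned block on replicate number (edgeR adjusted p = 0.0589), with the muscle covariate (edgeR adjusted p = 0.569) and against sham 2 alone. The fitted log2 fold change, which depends on the prior count, was 5.89 with all libraries, 4.57 against sham 2 alone and 3.90 with the covariate. Sham 2, low in muscle transcripts, held the 1 sham read. The part of muscle tissue in the Tnfrsf8 result was not tested. The ligand gene Tnfsf8 had 0, 4 and 0 counts (sham) against 1, 3 and 0 counts (I/R).

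CD30 is best known from activated T and B cells. The 9 T and NK cell markers summed to between 1.2 and 2.01 CPM in sham and between 1.73 and 2.47 CPM in I/R, with no marker at 0 in all libraries and Ncr1 at 0 in every sham library. By group mean, Cd3d, Nkg7 and Klrb1c lay lower in I/R and the other markers higher. Cd4, the 1 marker with enough reads to test, was not called. The 6 B cell markers summed to 22.5 to 27.1 CPM in sham and to 13.6 to 17.3 CPM in I/R, most of it from Ighm, which was called lower. The 9 macrophage markers summed to 72.2 to 78.1 CPM in sham and to 79.0 to 80.6 CPM in I/R, with none called. The part of these cells in the Tnfrsf8 result was not tested.

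Tnfrsf8 lies next to Tnfrsf1b in the gene order of RefSeq (GRCm38.p6), with no protein-coding gene between them. The 250 bases before the start of each gene on its own strand are shown to set the receptor that appeared in I/R beside its neighbor, which did not pass the test. They come from RefSeq's GRCm38.p6 and not from GRCm39, the build named in the submitters' processing notes. Capitals mark the AP-1 motif TGANTCA in Tnfrsf8 and the STAT motif TTCNNNGAA in Tnfrsf1b, each searched on both strands.
Tnfrsf8, chr4:145315165-145315414, minus strand: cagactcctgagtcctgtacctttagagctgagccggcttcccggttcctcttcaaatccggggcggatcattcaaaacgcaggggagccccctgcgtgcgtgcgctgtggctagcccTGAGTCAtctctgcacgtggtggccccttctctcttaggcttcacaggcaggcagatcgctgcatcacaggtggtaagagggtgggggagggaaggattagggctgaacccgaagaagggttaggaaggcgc
Tnfrsf1b, chr4:145246871-145247120, minus strand: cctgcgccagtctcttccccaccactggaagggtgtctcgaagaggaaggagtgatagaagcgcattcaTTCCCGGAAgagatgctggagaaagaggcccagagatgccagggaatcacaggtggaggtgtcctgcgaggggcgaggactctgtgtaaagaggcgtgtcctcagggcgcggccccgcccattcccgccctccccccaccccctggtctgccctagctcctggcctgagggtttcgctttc

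The AP-1 match of Tnfrsf8 lies 132 to 126 bases before the start. AP-1 motifs of this form were found in 6.75% of 32851 such windows, and in 9 of the 57 windows of the 48 receptor genes that have one. These were windows of Il13ra2, Il15ra, Il17rb, Il1rn, Il20ra, Il22ra1, Il5ra, Tnfrsf8 and Tnfrsf9. Il17ra had no window, so the bases before it were not searched. The STAT motif was found in 7.02% of all windows and in 10 of the 57. The cyclic AMP response element TGACGTCA was found in 1.55% of all windows and in none of the 57. These matches describe letters in a window and not binding.

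The other TNF receptors that bind TRAF adaptors were mixed. Tnfrsf12a, which encodes Fn14, the receptor of the cytokine TWEAK, stood at 5.50, 4.95 and 6.27 CPM (sham) against 12.4, 9.39 and 6.94 CPM (I/R). The I/R values were all above the sham values, I/R 3 only just. The log2 fold change was 0.78 ± 0.21 SE (95% interval 0.31 to 1.24), with an unadjusted p of 0.00415 and an adjusted p of 0.156 in edgeR's test. It was called with no filter on low counts (adjusted p = 0.012), and over all other alternatives its adjusted p ran from 0.0797 to 1. Tnfsf12, the TWEAK gene, stood at 13.7, 11.8 and 11.0 CPM (sham) against 11.7, 10.1 and 10.4 CPM (I/R).

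Tnfrsf1b, which encodes TNF receptor 2, stood at 5.16, 6.45 and 5.86 CPM (sham) against 7.02, 9.83 and 8.58 CPM (I/R). Its groups did not overlap either, and the log2 fold change of 0.54 ± 0.17 SE had an adjusted p of 0.229 in edgeR's test. Tnfrsf19, or TROY, which takes part in signaling that limits axon growth, stood at 6.92, 6.50 and 5.19 CPM (sham) against 4.40, 4.84 and 4.93 CPM (I/R). All its I/R values were below its sham values (log2 fold change -0.39 ± 0.16 SE; edgeR adjusted p = 0.423). Tnfrsf11a, which encodes RANK, stood between 25.6 and 29.6 CPM in every library (log2 fold change 0.06, 95% interval -0.17 to 0.29). Tnfrsf18, or GITR, stood at 0.687, 1.05 and 0.617 CPM (sham) against 1.09, 0.968 and 1.55 CPM (I/R), and Tnfrsf14, the herpesvirus entry mediator, at 1.08, 1.10 and 0.823 CPM (sham) against 0.346, 0.533 and 0.867 CPM (I/R). The groups overlapped for both genes, and neither passed the test. Tnfrsf13b, or TACI, a receptor of B cell survival factors, stood at 1.18 to 1.91 CPM in sham and 1.74 to 2.03 CPM in I/R. Tnfrsf4, Tnfrsf9, Tnfrsf13c and Tnfrsf17, costimulatory and survival receptors of lymphocytes, were too low to test, with 0 to 11 counts in a library.

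**Figure D3:**
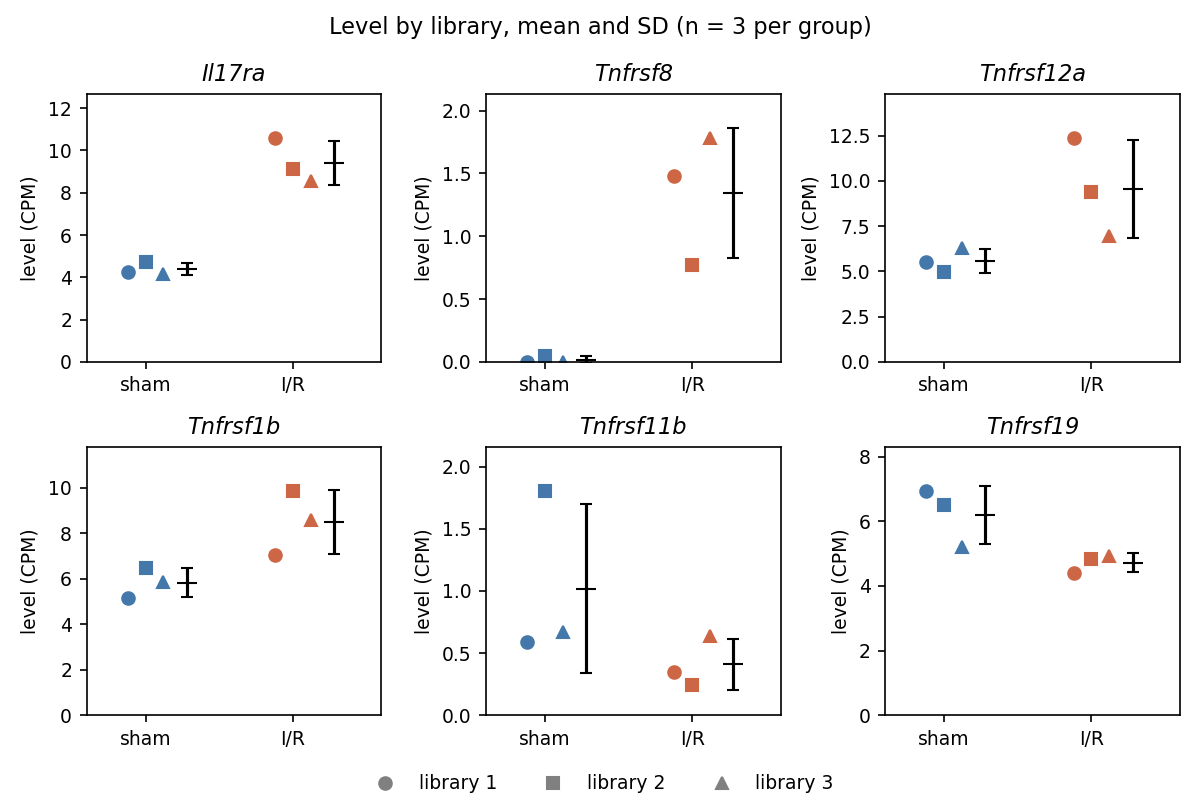
Level in CPM of 6 receptor genes in each of the 3 sham and 3 I/R libraries (symbols give the library number), with mean and SD. Il17ra, Tnfrsf8, Tnfrsf12a and Tnfrsf1b do not overlap between groups and lie higher in I/R, Tnfrsf19 does not overlap and lies lower, and Tnfrsf11b overlaps, with sham 1 and sham 3 near I/R 3.

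Decoy receptors were low. Tnfrsf11b, which encodes osteoprotegerin, the secreted decoy for the RANK ligand, stood at 0.589, 1.80 and 0.668 CPM (sham) against 0.346, 0.242 and 0.639 CPM (I/R). Sham 2 stood apart from the other sham libraries, and the groups overlapped. Its log2 fold change of -1.29 ± 0.53 SE (edgeR adjusted p = 0.429) was -0.60 without sham 2, -2.14 against sham 2 alone and -2.38 with the muscle covariate. Leaving out any other single library gave -1.77 to -1.05. The 8 fibroblast and meningeal markers moved the same way, with sums of 838 to 1000.2 CPM in sham and 470.3 to 554 CPM in I/R and 7 of them called lower. Their part in the values of Tnfrsf11b and Tnfrsf19 was not tested. Tnfrsf22 and Tnfrsf23, mouse decoy receptors for the TRAIL ligand, are neighbors in the gene order. Their deposited counts were not whole numbers in 6 and in 5 libraries, so the split of reads between them is uncertain. Tnfrsf23 stood at 1.42, 1.2 and 1.85 CPM (sham) against 2.27, 1.89 and 2.10 CPM (I/R) without overlap (edgeR adjusted p = 0.534), and Tnfrsf22 overlapped, at -0.17 on the log2 scale (adjusted p = 0.848). Their neighbor Tnfrsf26 had 0 to 4 counts in a library.

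The death domain receptors held the most abundant gene of all. Tnfrsf21, which encodes death receptor 6, known from the pruning of developing sensory axons, stood at 277, 293 and 235 CPM (sham) against 287, 329 and 309 CPM (I/R). It made up 39.9% to 45.5% of the summed CPM of all 60 genes in a library, and its level per kilobase was at the 94.5th percentile of tested genes. The groups overlapped (log2 fold change 0.20 ± 0.11 SE, 95% interval -0.04 to 0.44; edgeR adjusted p = 0.56). Tnfrsf1a, or TNF receptor 1, stood at 28.7, 25.7 and 23.7 CPM (sham) against 31.3, 29.97 and 27.3 CPM (I/R), again with overlap (log2 fold change 0.18, 95% interval -0.07 to 0.43). Per kilobase it exceeded Tnfrsf1b by 7.04 to 9.85 times in sham and by 5.4 to 7.89 times in I/R. Tnfrsf10b, the TRAIL receptor, and Tnfrsf25, or death receptor 3, stood between 0.726 and 2.01 CPM in every library and did not pass the test. The Tnf gene itself had 1, 2 and 2 counts in sham and 0 in each I/R library.

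No interferon or IL-10 family receptor passed the test. Of 11 genes 8 were tested, all with overlapping groups, log2 fold changes from -0.16 to 0.23 and no unadjusted p under 0.05. Ifnar1, a chain of the receptor for type I interferons, stood at 77.6, 79.2 and 68.7 CPM (sham) against 74.4, 85.9 and 86.3 CPM (I/R), a log2 fold change of 0.13 with a 95% interval of -0.10 to 0.36. Its partner Ifnar2 stood at 18.7, 17.1 and 18.97 CPM (sham) against 22.1, 18.9 and 16.7 CPM (I/R). Il10rb, the chain shared by receptors for IL-10, IL-22 and the lambda interferons, had the narrowest interval of the group (log2 fold change -0.01, 95% interval -0.20 to 0.19), at 55.6, 59.2 and 56.7 CPM (sham) against 56.5, 57.7 and 56.5 CPM (I/R). Ifngr1, which binds interferon gamma, stood at 24.8, 26.0 and 27.4 CPM (sham) against 24.3, 25.4 and 20.4 CPM (I/R), and its partner Ifngr2 at 52.3, 55.6 and 49.7 CPM (sham) against 56.0, 53.0 and 57.6 CPM (I/R). Ifnar2, Il10rb, Ifnar1 and Ifngr2 follow one another in RefSeq's gene order with no other protein-coding gene between them.

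In these receptor pairs one chain was more abundant than the other in every library. Per kilobase, Il10rb exceeded Il10ra, the chain specific to IL-10, by 20.5 to 25.1 times in sham and by 19 to 27.7 times in I/R. Ifnar1 exceeded Ifnar2 by 3.98 to 5.10 times in sham and 3.70 to 5.67 times in I/R, and Ifngr2 exceeded Ifngr1 by 1.04 to 1.22 times and by 1.19 to 1.61 times. These ranges overlapped between the groups. Il10ra itself stood at 4.27 to 5.45 CPM in sham and 3.85 to 5.61 CPM in I/R. Ifnlr1, the chain for lambda interferons, stood at 0.874 to 1.52 CPM in sham and 1.16 to 1.64 CPM in I/R, and Il20rb at 0.540 to 0.692 CPM over all libraries. Il20ra, Il22ra1 and Il22ra2, a soluble decoy for IL-22, were too low to test, with 0 to 4 counts in a library.

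**Figure D4:**
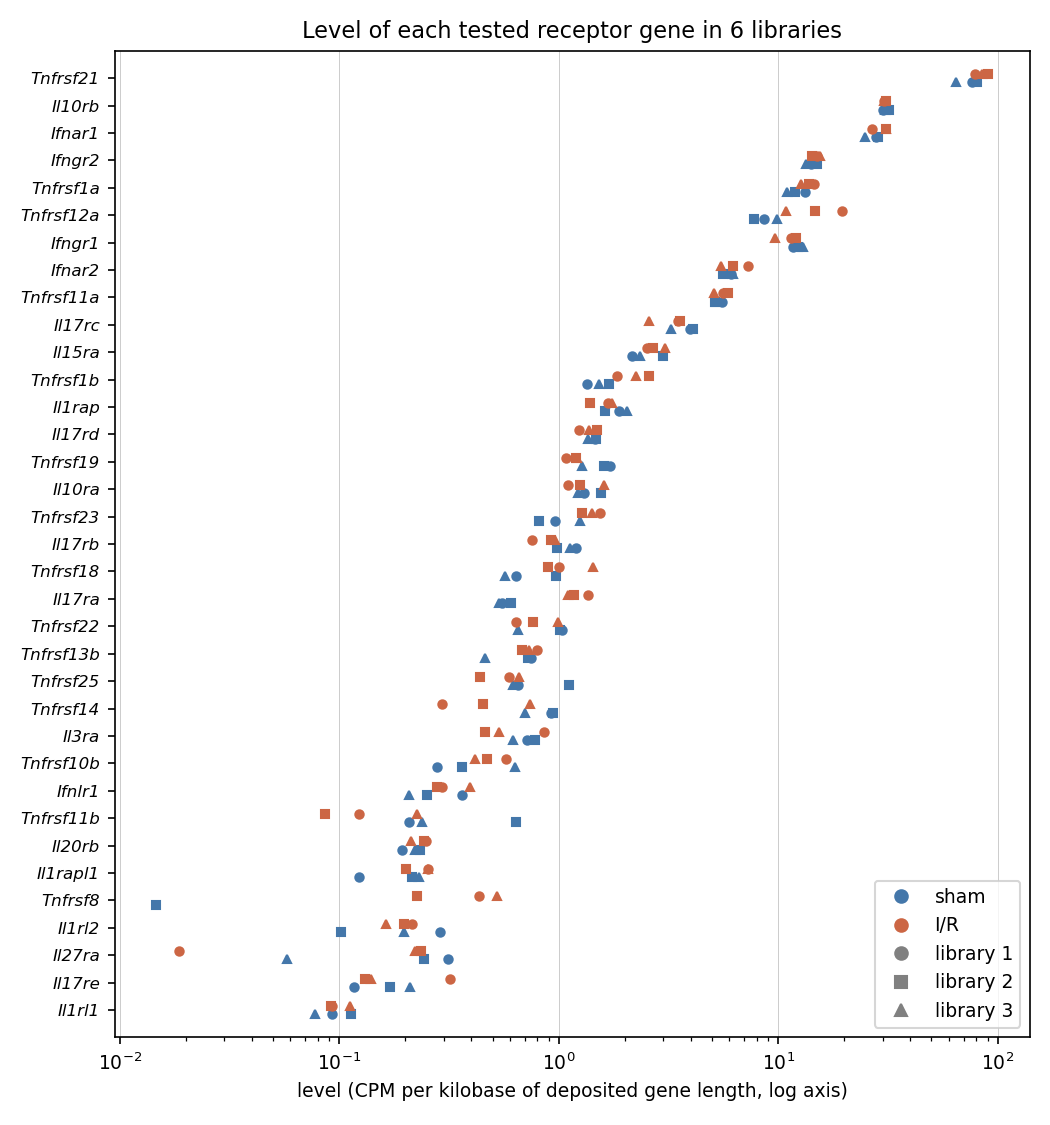
Level in CPM per kilobase of deposited gene length (log axis) of the 35 tested receptor genes in the 6 libraries, ordered by mean; values of 0, as for Tnfrsf8 in sham 1 and sham 3, cannot be drawn. Tnfrsf21 has the highest level, followed by Il10rb and Ifnar1, and 7 genes have a mean of at least 10 CPM per kilobase.

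IL-1 family receptors and receptors of the class I cytokine type were low. The fits with edgeR, DESeq2 and limma-voom called none of them, and none reached a p of 0.05 in edgeR before adjustment. Of 10 IL-1 family genes 4 were tested. Il1rap, the accessory chain of the IL-1, IL-33 and IL-36 receptors, had the highest level per kilobase among them, at 8.35, 7.25 and 9.10 CPM (sham) against 7.46, 6.15 and 7.80 CPM (I/R) (log2 fold change -0.21 ± 0.15 SE; edgeR adjusted p = 0.694). Il1rapl1, a synaptic relative, stood at 1.13 to 2.11 CPM in sham and at 1.84 to 2.33 CPM in I/R. Il1rl1, the IL-33 receptor, and Il1rl2, the IL-36 receptor, stood at 0.400 to 1.13 CPM over all libraries. Il1r2, the decoy for IL-1, was too low to test, with 7, 5 and 7 counts (sham) against 16, 11 and 6 counts (I/R), a ratio of 1.65 (95% counting interval 0.913 to 3.08). Il1rn, the IL-1 receptor antagonist, and Il1rapl2 had 0 to 3 counts in a library.

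The chains of the IL-18 receptor lay apart in opposite directions at very low counts. They were chosen after their values were seen and were too low to test. Il18r1, the binding chain, had 0, 2 and 1 counts (sham) against 4.04, 5 and 4 counts (I/R), a ratio of 4.13 (95% counting interval 1.13 to 22.6). Il18rap, its accessory chain, had 9, 8 and 8 counts (sham) against 2, 1 and 7 counts (I/R), a ratio of 0.381 with an interval of 0.163 to 0.821. Neither was called with no filter on low counts. The ligand Il18 stood at 1.37, 1.05 and 2.37 CPM (sham) against 2.13, 1.40 and 1.28 CPM (I/R).

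Of 14 class I cytokine receptor genes 3 were tested. Il15ra, which presents IL-15 to neighboring cells, stood at 3.44, 4.80 and 3.75 CPM (sham) against 4.05, 4.31 and 4.88 CPM (I/R) (log2 fold change 0.14 ± 0.18 SE; edgeR adjusted p = 0.832). Il3ra, the binding chain for IL-3, had a log2 fold change of -0.20 ± 0.29 SE (adjusted p = 0.85). Il27ra ranged from 0.154 to 0.835 CPM in sham and from 0.0494 to 0.629 CPM in I/R, with sham 3 and I/R 1 low. The receptors of lymphocytes were near the detection limit. Il7r, for example, had 1 to 3 counts in each library, and Il2ra and Il2rb had 5 to 13 counts. Il11ra2 had at most 2.2 counts and is a near copy of Il11ra1, so its reads are uncertain. Il5ra, the binding chain for IL-5, had 1, 1 and 3 counts (sham) against 5, 3 and 6 counts (I/R), a ratio of 2.67 (95% counting interval 0.908 to 9.46). Il9r, Il12rb1, Il13ra2 and Il21r had 0 to 11.8 counts in a library. The 25 untested genes all had a mean under 1 CPM, and at most 55 counts over the 6 libraries.

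Over all roles, 7 of the 35 tested genes (20%) had groups that did not overlap, against 17.1% of all tested genes, so this share was near the background. The 5 that lay higher in I/R, where the background was 9.23%, were Il17ra, Tnfrsf8, Tnfrsf12a, Tnfrsf1b and Tnfrsf23. The 2 that lay lower, with a background of 7.83%, were Il17rb and Tnfrsf19. An unadjusted p under 0.05 was found for 6 of the 35 (17.1%), against 10.5% of all tested genes, 5.7% higher and 4.8% lower. Of the 6, 4 lay higher and 2 lower. All but Il17ra were TNF receptors. Tnfrsf8, which passed the filter on low counts only through its I/R libraries, is counted in both shares. They are therefore not a result about the receptors as a set.

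The other genes of these pathways were followed in 3 lists, of ligands, of signal transducers and of feedback inhibitors. In edgeR, DESeq2 and limma-voom 0 of their members were called. Of 46 ligand genes 9 were tested, 10 had no read in any library, and 1 (11.1% of those tested) had an unadjusted p under 0.05, against 10.5% of all tested genes. This was Tnfsf13, which encodes the B cell factor APRIL, at 1.28, 2.15 and 2.21 CPM (sham) against 1.24, 1.31 and 0.639 CPM (I/R) (log2 fold change -0.83 ± 0.34 SE; edgeR adjusted p = 0.423). Il7 stood at 2.36, 2.45 and 2.57 CPM (sham) against 4.79, 2.13 and 4.11 CPM (I/R), high in I/R 1 and I/R 3 (adjusted p = 0.518).

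Of 36 transducers 35 were tested, with a median log2 fold change of -0.0020 and 3 (8.57%) at an unadjusted p under 0.05, below the 10.5% of all tested genes. Jak2, a Janus kinase, stood at 19, 19.6 and 19.8 CPM (sham) against 21.4, 23.7 and 26.2 CPM (I/R) (log2 fold change 0.29 ± 0.11 SE; edgeR adjusted p = 0.387). Traf1, a TRAF adaptor, stood at 3.54, 4.50 and 4.11 CPM (sham) against 2.77, 3.10 and 2.87 CPM (I/R) (log2 fold change -0.47, adjusted p = 0.356). Both had groups without overlap. This was so for 7 of the 35 tested transducers (20%), against 17.1% of all tested genes.

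All 20 feedback inhibitors were tested, with a median log2 fold change of 0.13. An unadjusted p under 0.05 was found for 3 of them (15%), against 10.5% of all tested genes; all 3 lay higher, where the background was 5.7%, and none was called. Socs3, which shuts off STAT3 signaling, stood at 9.82, 9.55 and 8.59 CPM (sham) against 15.96, 13.2 and 11.0 CPM (I/R), with no overlap (log2 fold change 0.52 ± 0.15 SE; edgeR adjusted p = 0.2). Ptpn1, a phosphatase acting on Janus kinases, stood at 48.3, 50.6 and 39.6 CPM (sham) against 56.3, 59.1 and 53.5 CPM (I/R), again without overlap (log2 fold change 0.28, adjusted p = 0.395). Groups without overlap were found for 5 of the 20 (25%), all higher in I/R. Over all tested genes the share was 17.1%, with 9.23% higher.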

How the data were processed

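Per the labels' protocols, TRIzol RNA was sequenced after a stranded Illumina mRNA preparation. GRCm39, StringTie, HISAT2 and fastp are named, without roles, in the submitters' processing notes. Of the counting step, its strand setting and its annotation nothing is stated. The authors deposited expected counts per gene, not scaled to library size, which were rounded to whole numbers for testing. The test was the quasi-likelihood one in edgeR 4.0.16 (R 4.3.3) on all 6 libraries, with TMM normalization, its filter on low counts and Benjamini-Hochberg adjustment over 16346 genes; the script was tested on simulated data. The design had assumed counts, and the test was kept. CPM use TMM-scaled library sizes, and per kilobase values use the deposited gene length. The alternatives were RLE and upper-quartile scaling, DESeq2 1.42.0, limma-voom 3.58.1, 2 other filters, a replicate block and leaving out libraries. No replicate pair agreed within sampling noise (chi-square per degree of freedom 4.05 to 27.9). The design text gives 3 mice per group but not how libraries map to animals, so p-values measure the spread between these libraries. The members, lists and motifs were chosen with earlier results of these data known. Genes given with full values are those called, those at an unadjusted p under 0.05, the 2 of highest level per kilobase in each role, those without overlap at a log2 fold change of at least 0.58, and in each pathway list the 2 of smallest p; other genes were chosen after their values were seen. Of the 60 genes, 59 matched RefSeq's gene order and 48 its start windows (GRCm38.p6).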

Additional observations from a re-analysis of the deposited data

How the results depend on the processing

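RLE or upper-quartile scaling, DESeq2, limma-voom and leaving out any single library each called 2 receptor genes, 2 higher and 0 lower, and 0 ligands, transducers or feedback inhibitors; no setting called any of the latter. The count of receptor genes called was 1, all higher, at a CPM of at least 1 in 3 libraries, which leaves Tnfrsf8 untested, and was 0 with the muscle level as a covariate or with sham 2 alone against I/R, both chosen after seeing the data. With the replicate block it was also 0, with an adjusted p of 0.0589 for both Il17ra and Tnfrsf8 at log2 fold changes of 1.10 and 5.86 (1.10 and 5.89 without the block), and 63 calls over all genes in place of 188. Over all genes DESeq2 made 301 calls, the fit with no filter 494, which added Tnfrsf12a to the receptors, and leaving out 1 library 87 to 181. The labels state no pairing of libraries by replicate number. Same-numbered libraries deviated with correlations of -0.106, 0.135 and -0.123, and not every library correlated best with its own number. With 3 libraries per group these correlations cannot settle whether the numbers pair the libraries. Of 358 log2 fold changes of named genes under the alternatives, 346 kept their direction and side of the threshold. Il15ra turned to -0.18 with the muscle covariate and to -0.14 against sham 2 alone. With 1 library left out, values near 0 changed sign for Il10rb (-0.034 to 0.017, above 0 without sham 2), Il17rd (-0.15 to 0.0046, above 0 without I/R 1) and Tnfrsf11a (-0.0078 to 0.11, below 0 without I/R 2). The cause was not tested. Scaling moved the median of all genes by under 0.01. The filter on low counts left 25 receptor genes untested; DESeq2 tested 47 of the 60 and the fit with no filter 57.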
